A study of Mus musculus with 4 samples.

Results

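Luminal progenitors are the cells of the inner layer of the mammary duct that give rise to milk-secreting cells. This account describes 10 innate defence genes associated with them, Cd14, Lcn2, Ltf, Saa1, Saa2, Hp, Lbp, Wfdc18, Tlr2 and Defb1, which were taken by symbol from the 27998 genes in the count tables. All 10 were present in every table, and they were chosen with earlier results of these data known. RNA was counted in single cells from FVB/NJ mice by a droplet method that reads the 3′ end of each transcript. The cells were mammary epithelium from glands in puberty, at 5 weeks of age, or from adult glands at 10 weeks in the estrus or the diestrus phase of the ovarian cycle, with no other treatment or allele. They had been sorted for the epithelial antigen CD24 and against markers of blood, endothelial and erythroid cells, and in each adult phase the glands of 2 mice were pooled.

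The mammary duct is a route by which bacteria can enter the gland, and its epithelium secretes defence proteins into the lumen and into milk. Cells sense bacterial lipids and lipopolysaccharide through Toll-like receptors and their helper proteins. The signal passes through NF-κB and, with cytokines that act through STAT3 and C/EBP factors, switches on acute-phase and antimicrobial genes. These proteins act by withholding iron from bacteria, by binding haemoglobin, by damaging bacterial membranes or by inhibiting proteases.

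The first puberty table held 5428 barcodes and the second 5400, of which 5387 were shared, and the totals of these cells had a Pearson correlation of 0.997. They were therefore taken as 1 library, with the counts of the first table for the shared cells. The other pairs of tables shared 13 to 24 barcodes. The 3 libraries held 10962454 to 25303015 counts, with medians of 3236 to 4123 counts per cell. Each stage had 1 library, so no difference between stages had a replicate check. All intervals are 2-sided 95% intervals that cover counting error only. Where a count was 0, the limit given is instead 3 counts of the total, and it limits the share of cells with a count, not of cells that express the gene.

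Cells were classified as basal, luminal progenitor (LP), mature luminal (ML) or intermediate luminal (Lum Int, between LP and ML) from marker genes that included none of the 10. The LP class held 1698 cells of puberty, 476 of estrus and 548 of diestrus. Each of the 3 lineages had its 8 fixed markers highest in its own class in all 3 libraries. The same markers had been used in setting the classes, so this is no independent check of them. Of 4084 luminal cells in puberty, 43 lay within 0.05 of the border of the LP class, against 13 of 1362 in estrus and 15 of 1316 in diestrus. A class was compared with another in counts summed over its cells in each library, given as counts per 1000000 summed counts (CPM) after TMM scaling. The tests were edgeR quasi-likelihood tests on 12 such sums with the library as a block, Benjamini-Hochberg adjustment over 11694 genes and a threshold of 0.01 on the adjusted p.

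The control sequence upstream of the genes is shown for Saa1, Saa2 and Tlr2. The first pair is shown because its windows are nearly alike, and Tlr2 because it was the only gene with a match to the NF-κB consensus among the 6 of the 10 that the RefSeq promoter table (GRCm38.p6) held. The stretch from 250 to 51 bases before the RefSeq start was searched on both strands for the κB consensus, for the C/EBP letters TTGCNNAA, for the STAT letters TTCNNNGAA and for the palindrome of the glucocorticoid and progesterone receptors. The capitals mark a C/EBP match in Saa1 and Saa2 and a pair of overlapping κB matches in Tlr2. The Saa windows are whole, on the minus strand for Saa1 (chr7:46743031-46743230) and the plus strand for Saa2 (chr7:46751583-46751782). That of Tlr2, on the minus strand (chr3:83841768-83841858), is shown only up to the start of the longer GENCODE gene.
Saa1: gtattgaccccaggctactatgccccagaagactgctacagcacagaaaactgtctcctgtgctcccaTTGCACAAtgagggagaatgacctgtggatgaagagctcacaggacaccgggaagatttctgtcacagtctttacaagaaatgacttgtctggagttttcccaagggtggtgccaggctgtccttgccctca
Saa2: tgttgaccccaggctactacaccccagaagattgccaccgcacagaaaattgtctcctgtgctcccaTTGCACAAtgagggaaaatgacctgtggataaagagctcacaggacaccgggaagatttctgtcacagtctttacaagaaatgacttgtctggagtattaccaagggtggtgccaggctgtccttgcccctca
Tlr2: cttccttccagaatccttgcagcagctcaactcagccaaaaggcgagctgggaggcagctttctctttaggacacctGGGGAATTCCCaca

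The Saa1 and Saa2 windows had the same base in 188 of 201 aligned columns (93.5%), with 2 gap columns. The genes lie 8809 bases apart on opposite strands. The C/EBP letters stood 182 to 175 bases before the start of Saa1 and 183 to 176 before that of Saa2. They were also present in the windows of Ltf, 75 to 68 bases before the start, and of Lcn2, inside the longer GENCODE gene. No match to the 4 motifs was present in the window of Wfdc18. Of 32851 promoter windows of this length, 8.11% held the C/EBP letters, 3.13% the κB consensus, 5.76% the STAT letters and 0.00913% the palindrome. A match describes the letters only, and binding was not measured here.

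The question of which epithelial lineage carried these genes was addressed first. Of the 10 genes, 9 were higher in LP than in ML cells, against 15.5% of all genes tested, and 1, Defb1, was lower, against 13.8% of all genes. Against basal cells 8 were higher in LP cells, where the share over all genes was 17.5%, and 0 were lower, where it was 17.9%. Tlr2 and Defb1 did not pass the test against basal cells. The median log2 fold change of the 10 genes was 5.24 for LP minus ML, beside 0.02 for all genes, and 4.20 for LP minus basal, beside 0.01 for all genes. Since the genes were chosen with earlier results known, these counts describe them and are no independent evidence of their lineage. Defb1 went against the label, as the plot of levels by class shows.

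**Figure D1:**
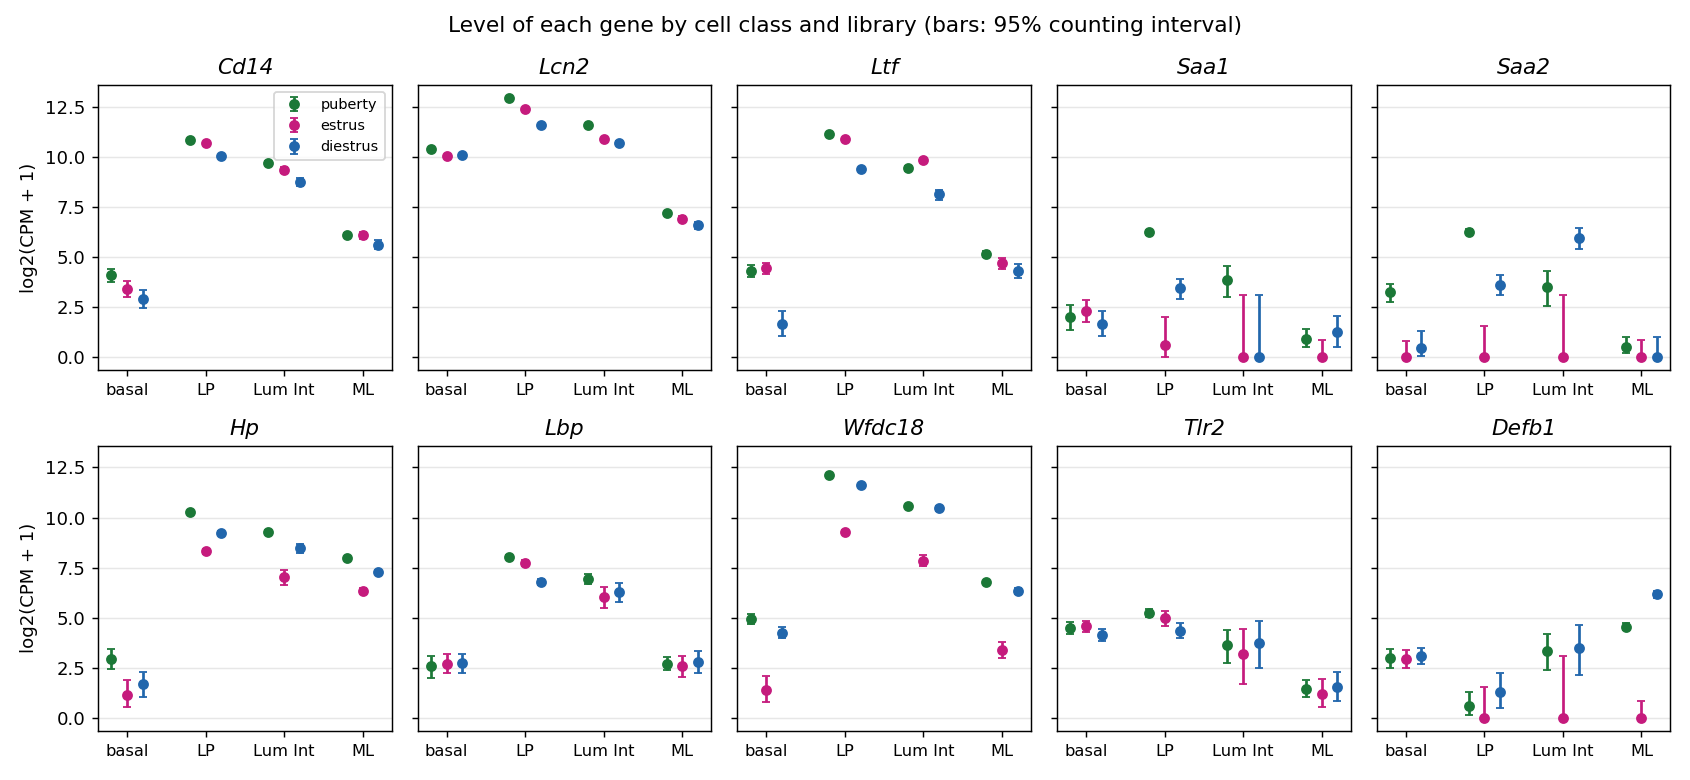
Level of each of the 10 genes, as log2(CPM + 1), in the summed basal, LP, Lum Int and ML cells of the puberty, estrus and diestrus libraries; points are libraries and bars are 95% counting intervals. Cd14, Ltf, Lbp and Wfdc18 are highest in LP cells in every library, Lcn2 is also high in basal cells, and Defb1 is near 0 in LP cells. The high Saa2 point in Lum Int cells in diestrus comes from 29 counts in 1 cell.

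The receptor genes were led by Cd14 (ENSMUSG00000051439, chromosome 18, 36725067 to 36726798), the co-receptor that hands lipopolysaccharide to the Toll-like receptor TLR4. In LP cells Cd14 stood at 1817 CPM in puberty, 1658 in estrus and 1041 in diestrus. In ML cells it stood at 66.5, 66.5 and 48.2 CPM, and in basal cells at 16.1, 9.70 and 6.60 CPM, in the same order of libraries. The classes did not overlap, and the order LP, ML, basal was the same in each library. The log2 fold change was 4.62 for LP minus ML (SE 0.14, adjusted p = 1.13e-12 by edgeR) and 7.15 for LP minus basal (SE 0.16, adjusted p = 2.21e-14).

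Lbp (ENSMUSG00000016024, chromosome 2, 158306493 to 158332852) encodes the secreted protein that binds lipopolysaccharide and delivers it to CD14. In LP cells it stood at 264 CPM in puberty, 211 in estrus and 110.0 in diestrus. The levels in ML cells were 5.58, 5.00 and 6.03 CPM and those in basal cells 4.94, 5.57 and 5.60 CPM, so both lay far below LP cells and overlapped each other. Lbp was higher in LP than in ML cells by a log2 fold change of 5.16 (SE 0.25, adjusted p = 9.13e-11 by edgeR) and than in basal cells by 5.10 (SE 0.25, adjusted p = 7.35e-11). ML and basal cells did not differ beyond their spread, with a log2 fold change of -0.06 (SE 0.32, adjusted p = 0.88), although with only the marker-defined cells of each lineage it was -1.47 (adjusted p = 0.00518).

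Tlr2 (ENSMUSG00000027995, chromosome 3, 83836272 to 83841767) encodes the receptor for bacterial lipoproteins. Its levels in LP cells were 36.6, 30.4 and 19.5 CPM in puberty, estrus and diestrus, on 219, 57 and 54 counts. Basal cells had 21.3, 22.9 and 16.8 CPM and ML cells 1.77, 1.30 and 1.92 CPM. LP and basal values thus overlapped across libraries, and both stood above ML cells. The log2 fold change was 4.13 for LP minus ML (SE 0.26, adjusted p = 2.23e-09 by edgeR). For LP minus basal it was 0.49 (SE 0.20, adjusted p = 0.0508), higher in LP cells in 3 of 3 libraries but short of the threshold.

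**Figure D2:**
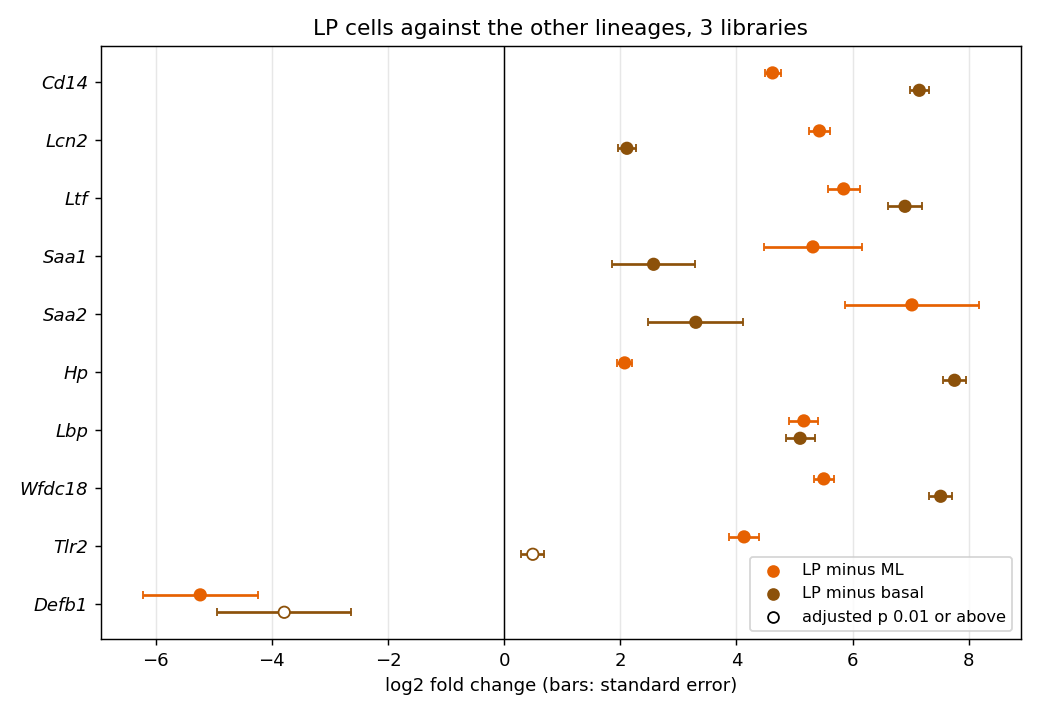
Log2 fold change (horizontal axis) of each gene for LP minus ML (orange) and LP minus basal cells (brown) from 12 summed profiles of 3 libraries; bars are standard errors and open points have an adjusted p of 0.01 or above. Cd14, Hp and Wfdc18 lie above 7 against basal cells, Tlr2 lies at 0.49, and Defb1 lies below 0 in both.

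The iron- and haem-binding genes were high in LP cells but differed in where else they were found. Lcn2 (ENSMUSG00000026822, chromosome 2, 32384633 to 32388252) encodes lipocalin 2, which captures the iron carriers of bacteria. Its LP level was 7765 CPM in puberty, 5256 in estrus and, lowest, 3026 in diestrus. Basal cells held 1345, 1064 and 1082 CPM and ML cells 145, 119 and 94.3 CPM, without overlap between the classes. Lcn2 was higher in LP than in basal cells by a log2 fold change of 2.11 (SE 0.15, adjusted p = 6.83e-09 by edgeR), a smaller difference than against ML cells, where it was 5.43 (SE 0.18, adjusted p = 1.87e-12).

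Between ML and basal cells, Lcn2 was lower in ML cells by a log2 fold change of -3.31 (SE 0.16, adjusted p = 4.13e-11 by edgeR). Free RNA from broken cells gives low counts in every droplet, and secreted genes that were high in LP cells, among them milk genes, were read beside the 10. Of 10 such genes Wap and Glycam1 had too few counts. In basal cells the other 8 stood at 0.0737% to 18.2% of their LP level, the highest being Mfge8, at 8.79% to 18.2%, and Csn3, at up to 3.08%. Mfge8 and Csn3 were also among the LP markers used in setting the classes, so their shares are not independent of the classes. Lcn2 in basal cells stood at 17.3%, 20.3% and 35.8% of its LP level, and Tlr2 at 58.1%, 75.4% and 85.9%. In ML cells the same 8 genes stood at 0.304% to 5.17% of their LP level, beside 1.86% to 3.12% for Lcn2 and 1.32% to 2.82% for Ltf. The ML counts were uneven over cells, and the 10 highest ML cells held 21.02%, 39.9% and 50% of those of Lcn2 and 55.4%, 72.8% and 92.8% of those of Ltf. The part of free RNA in these counts was not tested.

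Ltf (ENSMUSG00000032496, chromosome 9, 111019271 to 111042767) encodes lactoferrin, an iron-binding protein of milk. Its LP level was 2237 CPM in puberty and 1874 in estrus but 669.8 in diestrus. In ML cells it stood at 34.2, 24.8 and 18.9 CPM, and in basal cells at 18.8, 20.8 and 2.20 CPM. LP values lay above all others, and ML and basal values overlapped. The basal values rested on few cells, since 1 cell held 43 of the 76 basal counts in puberty and 1 held 58 of the 101 in estrus. The log2 fold change was 5.85 for LP minus ML (SE 0.28, adjusted p = 7.34e-11 by edgeR) and 6.90 for LP minus basal (SE 0.30, adjusted p = 1.44e-11).

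Hp (ENSMUSG00000031722, chromosome 8, 109575128 to 109579172) encodes haptoglobin, which binds free haemoglobin. It was a gene of both luminal lineages. LP cells had 1218 CPM in puberty, 318.1 in estrus and 602 in diestrus, ML cells 253, 80.0 and 155 CPM, and basal cells 6.67, 1.24 and 2.20 CPM. LP values exceeded ML values within each library by a log2 fold change of 2.07 (SE 0.13, adjusted p = 1.63e-09 by edgeR), and ML values exceeded basal values by 5.68 (SE 0.19, adjusted p = 9.43e-13). Without the library block the LP minus ML value was 2.13 (adjusted p = 0.0261).

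The luminal lineages differed more in the amount of Hp per cell than in the share of cells with a count. Without thinning, 30.9% of LP and 31.7% of ML cells had a count in puberty, 23.9% and 21.7% in estrus, and 37.0% and 35.1% in diestrus. At an equal depth of 2000 counts per cell the shares were 26.4% and 21.6%, 17.2% and 13.4%, and 29.7% and 21.9%, so LP cells then had the higher share. The mean in cells with a count, without thinning, was 13.9 counts in LP and 4.09 in ML cells in puberty. It was 5.24 and 2.09 in estrus, and 8.20 and 2.32 in diestrus. At least 10 counts, also without thinning, were present in 10.0%, 4.20% and 10.2% of LP cells, against 3.18%, 0.493% and 0.576% of ML cells. The ML level was 20.8% to 25.8% of the LP level, beside at most 5.17% for the 8 secreted genes.

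Saa1 and Saa2 encode serum amyloid A proteins, which rise in blood during the acute phase and are also made by epithelia. Saa1 (ENSMUSG00000074115, chromosome 7, 46740497 to 46742980) stood at 74.3 CPM in LP cells in puberty on 445 counts, 0.533 in estrus on 1 count and 9.77 in diestrus on 27 counts. Saa2 (ENSMUSG00000057465, chromosome 7, 46751790 to 46754313) stood at 75.5 CPM on 452 counts, at 0 counts, and at 11.2 CPM on 31 counts. The values of LP cells thus ran from the floor of 3 counts, 1.60 CPM in estrus, to more than 70 CPM, and overlapped those of basal cells, which reached 3.92 CPM for Saa1 and 8.40 CPM for Saa2.

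In the fit, Saa1 was higher in LP than in ML cells by a log2 fold change of 5.32 (SE 0.85, adjusted p = 9.38e-05 by edgeR) and than in basal cells by 2.57 (SE 0.71, adjusted p = 0.00685). The second difference was positive in 2 of 3 libraries. Saa2 was higher by 7.02 (SE 1.15, adjusted p = 0.000257) and by 3.30 (SE 0.82, adjusted p = 0.0046). The Saa1 calls depended on the libraries and on the tool. Without puberty its values were 2.97 (adjusted p = 0.044) and 0.55 (adjusted p = 0.64), without diestrus the value against basal cells was 2.74 (adjusted p = 0.0224), and with DESeq2 they were 4.16 (adjusted p = 0.0346) and 0.86 (adjusted p = 0.695). For Saa2 against basal cells DESeq2 gave an adjusted p of 0.169.

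A few cells held most Saa counts. In puberty 52 of the 1698 LP cells had a count of Saa1 and 26 had one of Saa2. Of the 61 with either gene 17 had both, as had 3 of 17 in diestrus. The 17 cells with both in puberty held 75.9% of the 897 counts of the pair. The highest cell alone held 31.2% of them. Of 50-base words in the last 500 bases of the transcripts, 23.7% of those of Saa1 and 21.9% of those of Saa2 were shared with another Saa gene, so the split of counts between them is uncertain. None of the words of Cd14, Lcn2, Ltf, Hp, Wfdc18, Tlr2 and Defb1 was shared with another gene, and 0.411% of those of Lbp were.

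The secreted antimicrobial and antiprotease genes went in opposite directions. Wfdc18 (ENSMUSG00000000983, chromosome 11, 83709015 to 83711348) encodes a small secreted protein with a whey acidic protein domain, a fold found in protease inhibitors. In LP cells it stood at 4465 CPM in puberty, 619.7 in estrus and 3151 in diestrus. ML cells had 108, 9.57 and 80.0 CPM and basal cells 29.4, 1.65 and 18.2 CPM, so all LP values lay above those of the other lineages. The log2 fold change was 5.50 for LP minus ML (SE 0.18, adjusted p = 1.87e-12 by edgeR) and 7.52 for LP minus basal (SE 0.20, adjusted p = 1.18e-13).

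Defb1 (ENSMUSG00000044748, chromosome 8, 21776599 to 21795185) encodes a beta-defensin, a peptide that damages bacterial membranes. LP cells held 3 counts in puberty, 0 in estrus and 4 in diestrus, that is 0.501, 0 and 1.45 CPM. ML cells had 22.4, 0 and 71.8 CPM and basal cells 6.92, 6.81 and 7.60 CPM. It was thus a gene of the other lineages, steady in basal cells and spread from 0 to 71.8 CPM in ML cells. For LP minus ML the log2 fold change was -5.23 (SE 0.99, adjusted p = 0.000461 by edgeR), lower in LP cells in 2 of 2 libraries with counts, while without diestrus it was -5.03 (adjusted p = 0.0105) and with DESeq2 -5.02 (adjusted p = 0.0104). For LP minus basal it was -3.79 (SE 1.16, adjusted p = 0.0131), and without estrus -3.05 (adjusted p = 0.0011).

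A count of Defb1 was present in 85 of 2201 ML cells of the puberty library, 0 of 812 of estrus, which allows a share of up to 0.369%, and 105 of 695 of diestrus. Against estrus, the lower limit of the interval of the log2 ratio of CPM, with nothing added, in ML cells was 6.47 for diestrus and 4.79 for puberty. The erythroid list, carried by Hba-a1, had 64.2, 21.7 and 493 CPM in ML cells, and the fibroblast gene Dcn had 345, 209.9 and 691 CPM, in the same order of libraries as Defb1. Of the other erythroid genes, Hbb-bs had 0 counts in ML cells of each library, and Alas2 stood at 1.42, 1.52 and 1.10 CPM. The other fibroblast markers, Col1a1, Col1a2, Pdgfra and Lum, each had 0 or 1 count in ML cells of each library. The part of these cell types in the Defb1 levels was not tested.

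Between ML and basal cells 4 of the 10 genes were higher in ML cells, Cd14, Ltf, Hp and Wfdc18, beside 21.3% of all genes. The Ltf value, 1.06 (adjusted p = 0.00501 by edgeR), was -0.33 (adjusted p = 0.757) with Leiden clusters and did not pass without puberty (1.11, adjusted p = 0.0245) or without diestrus (0.60, adjusted p = 0.0265). Cd14 did not pass with Leiden clusters (0.95, adjusted p = 0.0254), nor Wfdc18 with only the marker-defined cells (0.49, adjusted p = 0.502). Lcn2 and Tlr2 were lower, 2 of 10 beside 23.8% of all genes. In Lum Int cells the levels of Cd14 were 818, 649 and 432 CPM, between LP and ML values in each library. Those of Lcn2 were 3032, 1864 and 1662 CPM and those of Wfdc18 1508, 228 and 1403 CPM, also between LP and ML in each library. The position of Lum Int cells was set by LP and ML genes other than these 10. Lum Int cells had medians of 5441, 5483 and 6130 counts per cell in puberty, estrus and diestrus. Those of LP cells were lower, at 3894.5, 3258 and 4207, as were those of ML cells, at 4798, 4260.5 and 4451. The part of droplets holding both an LP and an ML cell in the Lum Int levels was not tested.

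Markers of white blood cells were examined because Cd14, Tlr2 and Lcn2 are also genes of macrophages and neutrophils. Of 12 myeloid genes, Ptprc, Csf1r, Itgam, S100a9 and Csf3r had 0 counts in LP cells of all 3 libraries. The list summed to 40.4, 9.06 and 7.24 CPM in LP cells of puberty, estrus and diestrus. S100a8, which epithelia also make, accounted for 27.4, 2.13 and 2.53 CPM of it and Cd68 for 8.52, 5.33 and 3.62 CPM.

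The share of cells with a count was compared after each cell had been thinned to 2000 counts, which left out 119, 75 and 53 shallower LP cells of puberty, estrus and diestrus. Lcn2 was found in 98.4%, 98.5% and 89.7% of LP cells in puberty, estrus and diestrus (99.5%, 99.2% and 96.4% without thinning). Basal cells gave 78.5%, 80.0% and 80.0% and ML cells 9.53%, 10.1% and 7.99%, so basal detection was widespread at these depths. Cd14 was found in 70.0%, 77.3% and 64.8% of LP cells, against 2.54%, 1.58% and 0.819% of basal cells and 6.46%, 8.01% and 7.05% of ML cells.

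Other genes were found in fewer LP cells. Ltf was detected in 48.6%, 45.4% and 23.4% of thinned LP cells and Lbp in 30.0%, 29.7% and 17.8%. In ML cells the highest share was 2.92% for Ltf and 1.10% for Lbp. Wfdc18 was detected in 81.3%, 40.6% and 76.8% of LP cells, with intervals of 79.2% to 83.2%, 35.8% to 45.6% and 72.8% to 80.4%, so estrus stood below the other libraries beyond counting error. Hp was detected in 26.4%, 17.2% and 29.7% of LP cells and 21.6%, 13.4% and 21.9% of ML cells.

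The least often detected were Tlr2, the Saa genes and Defb1. Tlr2 had a count in 5.32%, 6.48% and 4.44% of thinned LP cells and 4.15%, 5.57% and 3.27% of basal cells, with overlapping intervals in each library. Saa1 had one in 2.15% of LP cells in puberty, 0 of 401 in estrus, which allows a share of up to 0.748%, and 0.808% in diestrus. Defb1 had one in 0 of 1579 LP cells in puberty, which allows up to 0.190%, and in 9.56% of ML cells in diestrus (7.39% to 12.1%).

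**Figure D3:**
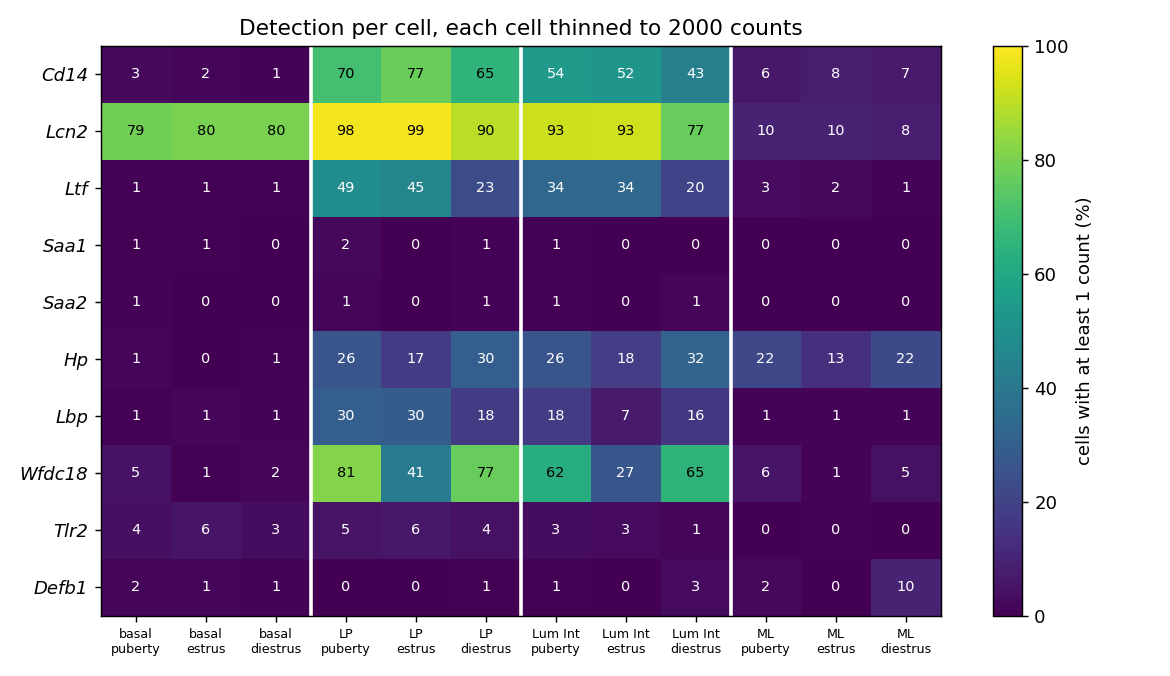
Percentage of cells with at least 1 count of each gene (colour and printed value) in each class and library, after thinning every cell to 2000 counts. Lcn2 is high in LP, Lum Int and basal columns, and Hp is spread over LP, Lum Int and ML columns. Cd14 and Wfdc18 are higher in LP and Lum Int than in basal and ML columns. In estrus Wfdc18 is in 40.6% of LP and 26.8% of Lum Int cells.

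Most LP cells carried several of the genes at once. The median was 4 of the 10 genes per thinned LP cell in puberty and 3 in estrus and in diestrus, against 1 in basal cells and 0 in ML cells of every library. At least 5 genes were found in 21.8% (19.8% to 24.0%), 9.48% (6.79% to 12.8%) and 11.1% (8.48% to 14.2%) of the thinned LP cells of puberty, estrus and diestrus, and in 38.8%, 25.8% and 29.6% without thinning. In basal cells 0 of 867, 0 of 952 and 0 of 855 cells reached 5. No LP cell in puberty or estrus and 0.202% of LP cells in diestrus lacked all 10, against 61.9%, 72.9% and 61.0% of ML cells.

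**Figure D4:**
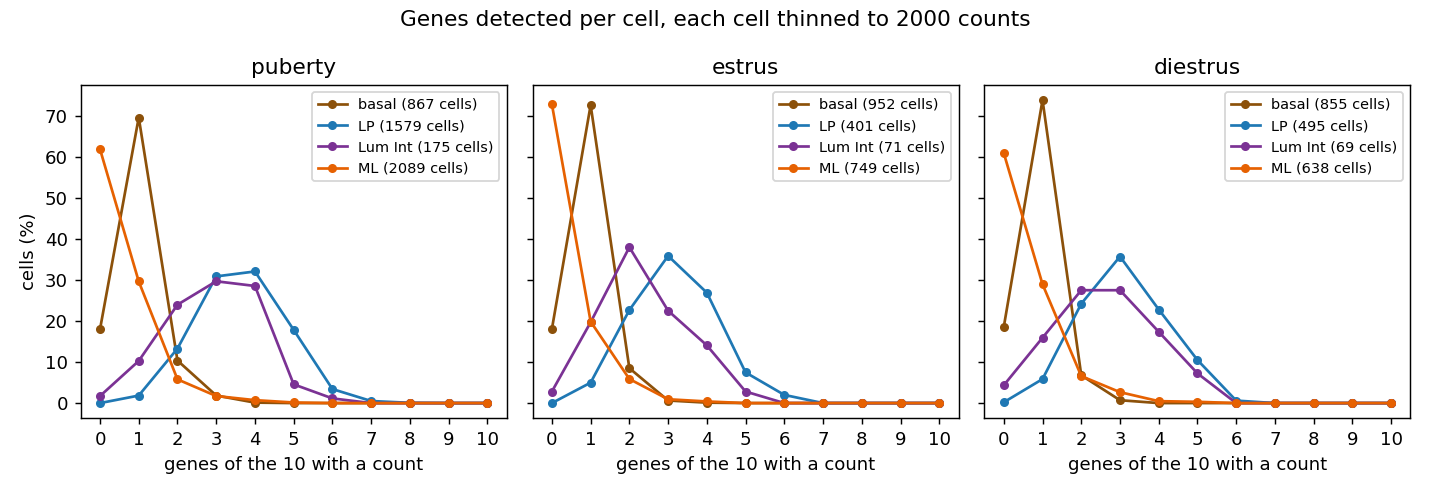
Percentage of cells (vertical axis) with a given number of the 10 genes detected (horizontal axis) by class in each library, after thinning to 2000 counts. LP cells peak at 3 or 4 genes, basal cells at 1 and ML cells at 0, with Lum Int cells at 2 or 3.

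Differences between stages were examined within LP cells, where each stage is 1 library, so these are values without a test. From estrus to diestrus, 2 of the genes were at least 2-fold higher in diestrus, Wfdc18 and Saa2, beside 6.15% of all genes at 10 CPM or more, and 1, Ltf, was at least 2-fold lower, beside 5.53%. Wfdc18 was 5.08-fold higher, a log2 ratio of 2.34 (interval 2.26 to 2.44). Ltf had a log2 ratio of -1.48 (-1.57 to -1.40). The 10 highest LP cells held 28.6% of the Ltf counts in estrus and 36.1% in diestrus, a spread between cells that the interval does not cover. Saa2 had 31 counts against 0 in estrus, with a lower limit of 2.43 for the log2 ratio, and 14 of the 31 counts lay in 1 of 8 cells. Saa1 had 27 counts against 1 in estrus and a log2 ratio of 2.81 (1.60 to 9.55). In all ratios between stages 1 CPM was added to each level, but the intervals are for the ratios without it. A ratio and its interval thus differ in measure where counts are low. Saa1 was not counted because its level in diestrus, 9.77 CPM, was below 10 CPM. Defb1, at 1.45 CPM in diestrus, was not counted either. The median log2 ratio of all genes was -0.06.

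Cd14, Lcn2, Lbp and Tlr2 had lower levels in diestrus than in estrus, and each by less than 2-fold. Their log2 ratios were -0.67 (-0.74 to -0.60), -0.80 (-0.84 to -0.75), -0.93 (-1.16 to -0.72) and -0.61 (-1.20 to -0.07). Hp went the other way, with a log2 ratio of 0.92 (0.78 to 1.06) and 1.19 without cycling cells. The 10 highest LP cells held 18.8%, 43.7% and 23.9% of the Hp counts in puberty, estrus and diestrus. In ML cells Hp and Wfdc18 had log2 ratios of 0.95 and 2.94, and in basal cells Wfdc18 had one of 2.86. The ML and basal levels of Wfdc18 were 0.266% to 2.54% of the LP level, and the part of free RNA in them was not tested.

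Against both adult libraries, 3 genes were at least 2-fold higher in LP cells in puberty, Saa1, Saa2 and Hp, and 0 were lower. Of all genes at 10 CPM or more in LP cells of any library, 1.81% were higher and 0.662% lower. Defb1 lay below 10 CPM in LP cells of each library and was not counted. Saa1 had log2 ratios of 5.62 against estrus, where it had 1 count (4.64 to 12.43), and 2.81 against diestrus (2.37 to 3.55). Saa2 had 452 counts against 0 in estrus, with a lower limit of 5.26 for the log2 ratio, and a log2 ratio of 2.65 against diestrus (2.23 to 3.33). Hp had log2 ratios of 1.93 against estrus (1.82 to 2.06) and 1.02 against diestrus (0.94 to 1.09). Without TMM scaling, which moved the median of all genes from 0.07 to -0.28 in puberty minus diestrus and from 0.04 to -0.25 in puberty minus estrus, the Hp value against diestrus was 0.66 and no longer past 2-fold. It was also under 2-fold without cycling cells (0.84) and as a mean over cells (0.64).

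The LP cells were also followed by cluster. Clusters were made separately in each library and without the 10 genes, so libraries cannot share a cluster and cluster numbers do not correspond between them. The levels by cluster are CPM without TMM scaling. LP cells in estrus lay mostly in 1 cluster of 479 cells. LP cells in diestrus lay in cluster 0, of 376 cells and led by Rspo1 and Klk10, and in cluster 6, of 201 cells and led by the milk genes Lalba and Spp1. In puberty they lay in cluster 0 (1024 cells, led by Slc1a1), cluster 7 (367 cells, led by Txnip) and cluster 6 (378 cells, led by Cst6, of which 88.4% were LP cells and which was left without a name).

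Within diestrus the clusters held the genes in different amounts. Cd14 stood at 1649.8 CPM in cluster 6 and 837 in cluster 0, Lcn2 at 6237 and 1769, Ltf at 1508 and 387, Lbp at 198 and 78.3, and Hp at 922 and 474. Wfdc18 was the other way round, at 1751 in cluster 6 and 3807 in cluster 0. The estrus cluster, with 1619.5 for Cd14, 5121 for Lcn2, 1829.6 for Ltf and 207 for Lbp, stood nearer to cluster 6 of diestrus than to its cluster 0 in these 4 genes. In Hp, at 313 CPM, it stood nearer to cluster 0, and in Hp and in Wfdc18, at 616 CPM, it stood below both.

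In puberty a like contrast was present between cluster 0 and cluster 6. Cluster 0 had 7974 CPM of Lcn2, 1785 of Cd14 and 3029 of Wfdc18, and cluster 6 had 2834, 860.3 and 5554. Saa1 stood at 98.9 in cluster 0, 12.7 in cluster 7 and 3.71 in cluster 6. Among single thinned LP cells, log-scaled counts of Lcn2 and Wfdc18 had a Pearson correlation of -0.24 over 1579 cells in puberty, -0.10 over 401 cells in estrus and -0.35 over 495 cells in diestrus. Those of Cd14 and Lcn2 had 0.25, 0.01 and 0.37. The cells of a value share their library and its free RNA, and these correlations are descriptions.

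**Figure D5:**
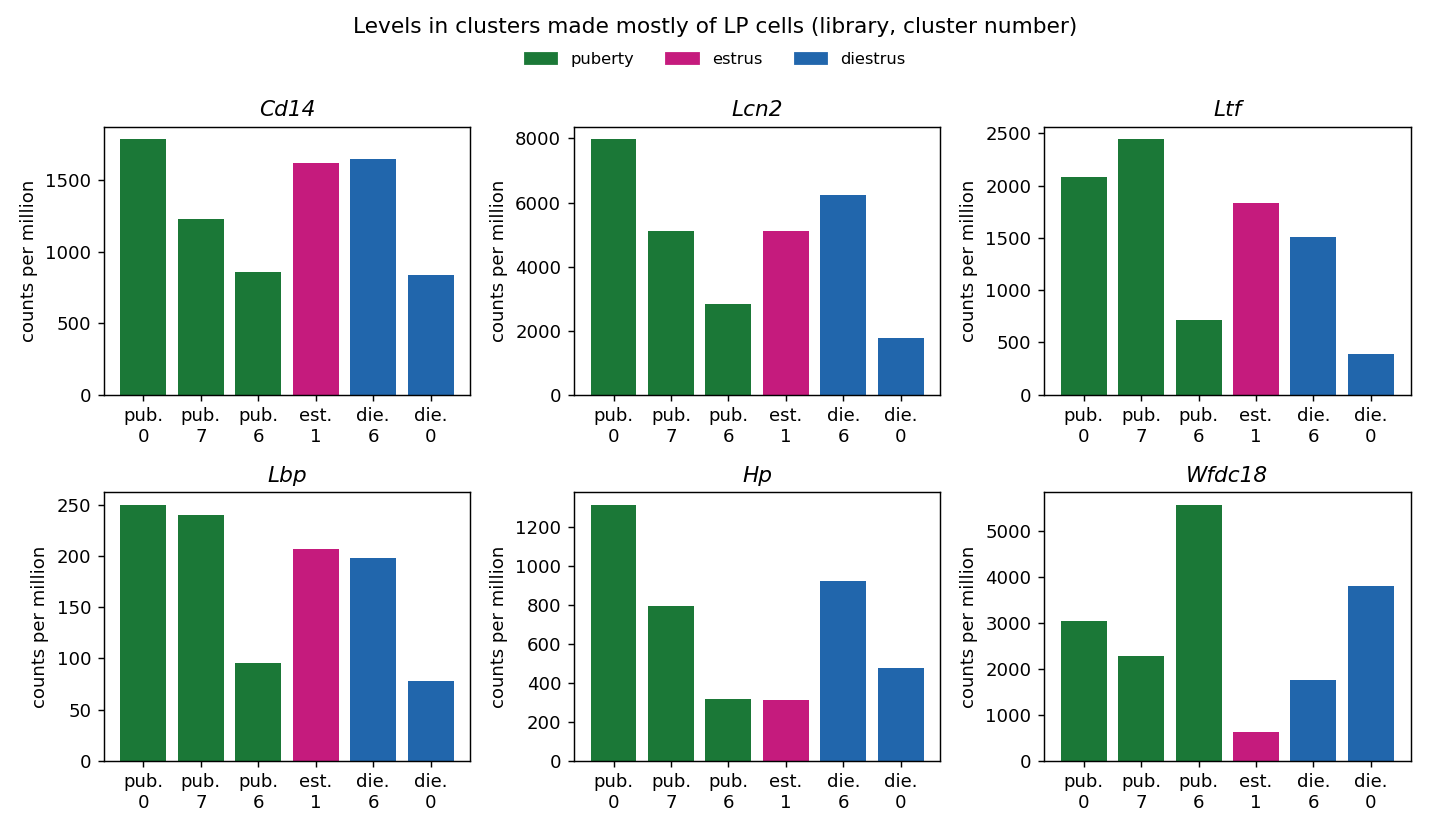
Level of 6 genes in CPM without TMM scaling (vertical axis, each from 0) in the clusters made mostly of LP cells, by library and cluster number. In diestrus, cluster 6 stands above cluster 0 in Cd14, Lcn2, Ltf, Lbp and Hp and below it in Wfdc18. In puberty, cluster 0 stands above cluster 6 in Cd14, Lcn2, Ltf, Lbp and Hp and below it in Wfdc18.

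Other genes of the same pathways were followed through 4 lists. Of 25 further secreted defence genes 14 had enough counts to be tested, and 9 were higher and 4 lower in LP than in ML cells, beside 15.5% and 13.8% of all genes. Cfb, complement factor B, had a log2 fold change of 5.98 (adjusted p = 7.13e-06 by edgeR), and Trf, the iron carrier transferrin, one of 5.62 (adjusted p = 6.91e-12). Reg3g, an antibacterial lectin, and Wfdc2, a relative of Wfdc18, were lower in LP cells, with -5.85 (adjusted p = 8.4e-10) and -5.29 (adjusted p = 5.42e-11). Against basal cells 9 were higher and 1 lower, beside 17.5% and 17.9% of all genes.

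The Toll-like receptor list had 9 tested genes of 18, and 3 were higher and 0 lower in LP than in ML cells, where 15.5% and 13.8% of all genes were. These were Tlr4, the lipopolysaccharide receptor (1.91, adjusted p = 0.00142 by edgeR), and the signal carriers Irak2 (1.40, adjusted p = 0.00205) and Traf6 (1.21, adjusted p = 0.00307). Ly96, which encodes the partner of TLR4, had too few counts to be tested. Against basal cells 5 were higher and 0 lower (17.5% and 17.9% of all genes).

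Of 14 NF-κB genes, all tested, 6 were higher and 1 lower in LP than in ML cells (15.5% and 13.8% of all genes). The highest were the inhibitor Tnfaip3 (3.65, adjusted p = 5.09e-09 by edgeR), Nfkbiz, which encodes a nuclear partner of NF-κB (2.04, adjusted p = 2.83e-06), the inhibitor Nfkbia (1.89, adjusted p = 9.32e-06) and the subunit Nfkb1 (1.27, adjusted p = 5.01e-05). Of the 14, 7 were higher and 0 lower than in basal cells, against 17.5% and 17.9% over all genes.

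The list of acute-phase signalling had 10 tested genes of 11, of which 5 were higher and 2 lower in LP than in ML cells, against shares of 15.5% and 13.8% over all genes. Cebpb, a C/EBP factor, had 3.18 (adjusted p = 5.17e-10 by edgeR), the receptor subunits Il1rap and Il6ra 2.92 (adjusted p = 0.000437) and 2.50 (adjusted p = 7.77e-05), and Lifr, a receptor for leukaemia inhibitory factor, -1.76 (adjusted p = 6.08e-05). Against basal cells 1 of the 10 was higher and 4 were lower, where 17.5% and 17.9% of all genes were. The medians of the 4 lists for LP minus ML were 3.10, 0.19, 0.71 and 0.54, in the order given, beside 0.02 for all genes. Without the library block the 4 lists together had 14 genes higher in LP than in ML cells in place of 23.

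The profile of the 10 genes over the 12 sums, taken as the mean of their scaled log2(CPM + 1) values, was followed by Lbp and Wfdc18 most closely among them, each with a Pearson correlation of 0.93, and by Tlr2 and Defb1 least, with 0.58 and -0.27. A mean of at least 50 CPM was reached by 2668 genes, which include some of the 10. Among those outside the 10, the profiles most like it were those of Rps4x (0.96), Tbcc (0.96), Rpl14 (0.94), Wfdc3 (0.94) and Klk10 (0.94). The sums share 3 libraries and 4 classes, so these are descriptions over 12 points. Among single LP cells, the genes whose detection went most with the number of the 10 genes in all 3 libraries were Cxcl2, Cxcl1, Cpe, Ctsl and Dusp1, with correlations between 0.07 and 0.13, which are too weak to be read as a pattern. Cxcl2, Cxcl1 and Cpe were also among the genes used to place cells in the LP class.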

How the data were processed

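Single mammary epithelial cells were profiled with the 10x Genomics 3′ method. The authors made the deposited tables with Cell Ranger 2.0 on mm10, per the labels and methods, and the deposited values are raw molecule counts per gene and barcode that had not been scaled.

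Barcodes were removed where 3 or more of the 5 genes of an endothelial, fibroblast or immune list were detected and outweighed the keratins (14 in puberty, 19 in estrus, 8 in diestrus), which left 5373, 2710 and 2431 epithelial cells. Seed cells had a z-score over the 8 markers of a lineage at least 1 above the others. Signatures of up to 100 genes, at least 2-fold higher in the seeds of a lineage and detected in 10% of them, without the 10 genes or their pathway lists, placed each cell between the seed medians. The LP signature did hold cytokine genes, among them Cxcl1, Cxcl2, Csf3 and Tnf, so the LP class was not set independently of such genes. Cells in the middle between basal and luminal medians were kept apart as mixed (168, 38 and 67). No doublet caller was run. For the detection of genes, cells were thinned to 2000 counts.

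Counts summed per class and library (436924 to 11893150 per sum, TMM factors 0.789 to 1.17) were tested with edgeR 4.0.16 in R 4.3.3, with filterByExpr and a block for library. The libraries of the 3 stages stand in for replicates of a lineage difference. The p-values thus measure how far the differences between classes varied over these libraries, after the block had removed differences between libraries. Standard errors were derived from the fold change and F. Ratios between stages used TMM-scaled CPM with a pseudocount of 1 CPM, exact Poisson intervals for levels and conditional binomial intervals for ratios, and Clopper-Pearson intervals for shares. The intervals for ratios were made without the pseudocount. Clusters came from leidenalg 0.10.2 (resolution 0.8, 2000 variable genes, 20 components, 15 neighbours). Alternatives were DESeq2 1.42.0, no filter, no block, each library left out, the second or both puberty tables, other classes, no cells with most counts, other pseudocounts, scaling and depths.

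The members and gene lists were chosen with earlier results of these data known. The genes named were the 10 members, up to 4 called genes with the largest LP minus ML change per pathway list, and the 5 genes most like the members over sums and over cells. Positions came from GENCODE M21 (GRCm38), which matched 27645 of 27998 gene IDs, and promoter windows from RefSeq.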

Additional observations from a re-analysis of the deposited data

Results flagged for a closer look

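The difference of Defb1 between ML and basal cells changed direction between libraries. The log2 ratio of CPM plus 1, ML minus basal, was 1.56 in puberty and 3.08 in diestrus but -2.97 in estrus, where ML cells had 0 counts of Defb1 and basal cells had 33. The difference between the libraries was not tested, since each stage had 1 library.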

How the results depend on the processing

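The alternatives gave 7 to 9 genes higher in LP than in ML cells, 6 to 8 higher than in basal cells, 4 to 9 differing between ML and basal cells, and 2 to 3 past 2-fold in puberty against both adult libraries. Between diestrus and estrus 5 were past 2-fold without cycling cells, Ltf, Saa1, Saa2, Hp and Wfdc18, in place of 3. With 1 library left out, 8 to 9, 7 to 8 and 5 to 7 genes were called in the 3 lineage comparisons, and 17 to 21 genes of the pathway lists were higher in LP than in ML cells. Without the library block the lists had 14 such genes in place of 23, and over all genes 1016 were higher and 760 lower in LP than in ML cells in place of 1809 and 1612, and 1200 and 1280 against basal cells in place of 2049 and 2090. The calls of Hp, Saa2 and Defb1 against ML cells and of both Saa genes against basal cells were then lost (adjusted p from 0.0141 to 0.0754 for Saa2, 0.0261 for Hp, 0.0109 for Defb1 and 0.0303 for Saa1). The alternatives for ML against basal cells, for the pathway lists and for the number of LP cells were chosen after seeing the data. Of the values of single genes in lineage comparisons, 320 kept their direction and side of the threshold, 18 newly passed it, 21 no longer did and 1 reversed, Ltf in ML minus basal cells with Leiden clusters (-0.33, adjusted p = 0.757). The cause was not tested. The share of LP cells with at least 5 genes moved with depth, to 8.89%, 2.94% and 2.55% at 1000 counts per cell, 34.3%, 20.9% and 16.2% at 3000, and 38.8%, 25.8% and 29.6% without thinning, and puberty was highest each time. In puberty it was 24.9% with the second table, 24.96% with Leiden clusters and 24.1% with seed cells. No paired analysis was possible because the stages share only the replicate number 1 and have 1 library each.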
